A study of Mus musculus with 16 samples.

Results

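The 10 genes described here are the 4 fibroblast growth factor (FGF) receptor genes, Fgfr1, Fgfr2, Fgfr3 and Fgfr4, and 6 genes that FGF signalling is known to switch on, Etv4, Etv5, Spry1, Spry2, Spry4 and Dusp6. They were taken from the deposited count table by gene symbol. All 10 were found among its 55228 symbols, and all 10 were among the 18254 genes with enough counts to be tested. FGF receptors are tyrosine kinases that bind secreted FGF ligands together with heparan sulphate on the cell surface, and that pass the signal through adaptor proteins to RAS, the RAF and MEK kinases, and ERK. ERK activity raises transcription of the ETS factor genes Etv4 and Etv5. It also raises the inhibitors that limit the signal: the Sprouty genes, whose products act between receptor and ERK, and Dusp6, whose product is a phosphatase that removes the activating phosphates from ERK. In the developing lower urinary and genital tract, FGF10 from mesenchyme is known to act on the splice form of FGFR2 that epithelium makes, while mesenchyme makes another splice form of the receptor. Other receptor tyrosine kinases that act through ERK can switch on the same response genes.

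Gene expression was measured by strand-specific sequencing of poly(A) RNA from 16 libraries of embryonic lower urinary tract mesenchyme, the embryonic connective tissue under the epithelium. The 4 groups were male pelvic urethra, female pelvic urethra, male bladder and female bladder, with 4 libraries each. All embryos were wild-type, outbred CD-1 mice at embryonic day 16.5, with no treatment named in the labels. Embryos of 1 sex within a litter were pooled, so each of 4 litters gave 1 library to every group, and the urethra and bladder libraries of 1 litter and sex share their embryos. The groups over both sexes therefore hold 8 libraries but only 4 litters.

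Library totals were 24447435 to 29698009 counts in urethra and 18577097 to 22293812 in bladder (n = 8 each), so depth went with tissue. All 10 mesenchyme markers were found in every group, but their levels differed between tissues in both directions. Levels are given as CPM (counts scaled by the TMM-adjusted library total). Pdgfra was at 598 CPM in urethra and 130 CPM in bladder, and Col3a1 at 3700 and 5600 CPM (means, n = 8 each). The libraries were not free of other cells. None of 24 epithelium markers was at 0 in any group. Their summed level was 2840 to 3700 CPM in male urethra and 1110 to 2940 CPM in female urethra. In bladder it was 5110 to 6240 CPM in males and 2560 to 5120 CPM in females. Female urethra replicates 3 and 4 stood apart, with an epithelium score (the mean log2 CPM of these markers) of 5.46 and 4.86, against 6.21 to 6.62 in male urethra and 6.30 and 6.22 in the other 2 female urethra libraries. Calls between tissues used the edgeR quasi-likelihood test with a Benjamini-Hochberg adjusted p under 0.05, as in all gene tests below. Higher in urethra were 16 of 19 tested skeletal muscle markers, 12 of 12 neuron, 9 of 10 glia and 11 of 12 endothelium markers. Lower were 12 of 12 smooth muscle markers, 9 of 10 mesothelium markers and 1 of 10 glia markers. Of the 24 epithelium markers, 13 were lower in urethra, 3 were higher and 8 were not called. The tissue makeup thus differed along with the label. Its part in the differences between tissues was not tested except where epithelium is named below. Since its markers went in both directions, the epithelium score does not measure the amount of epithelium alone.

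Of the 10 genes, 7 were higher in urethra than in bladder mesenchyme and none was lower. The 7 were Fgfr1, Fgfr2, Fgfr4, Etv4, Etv5, Spry2 and Dusp6, each higher in urethra in 8 of 8 pairs of libraries from the same pool. The spread of effects was wide, with fitted folds of 8.19 for Etv4, 2.05 for Fgfr1, 1.86 for Fgfr4, 1.74 for Dusp6, 1.72 for Etv5, 1.5 for Fgfr2 and 1.28 for Spry2. Fgfr3, Spry1 and Spry4 did not pass the test over both sexes. Differences between these tissues were common over the whole table: 75% of all tested genes were called, 36.5% higher and 38.5% lower. Within males, 8 of the 10 genes were higher, the same 7 and Spry1, where 64% of all tested genes were called and 31.4% were higher. Within females it was the same 7 genes, where 65.7% were called and 32.6% were higher. The median log2 fold change was 0.68 over the 10 genes and −0.03 over all tested genes. The libraries of the 2 tissues did not overlap for 5 of the 10 genes (Fgfr1, Etv4, Etv5, Spry2 and Dusp6), all higher in urethra, whereas 42.3% of all tested genes did not overlap in either direction and 22% were higher without overlap. In bulk tissue, fewer cells of a type and less RNA per cell cannot be told apart, so these values are levels in the whole dissected tissue.

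**Figure D1:**
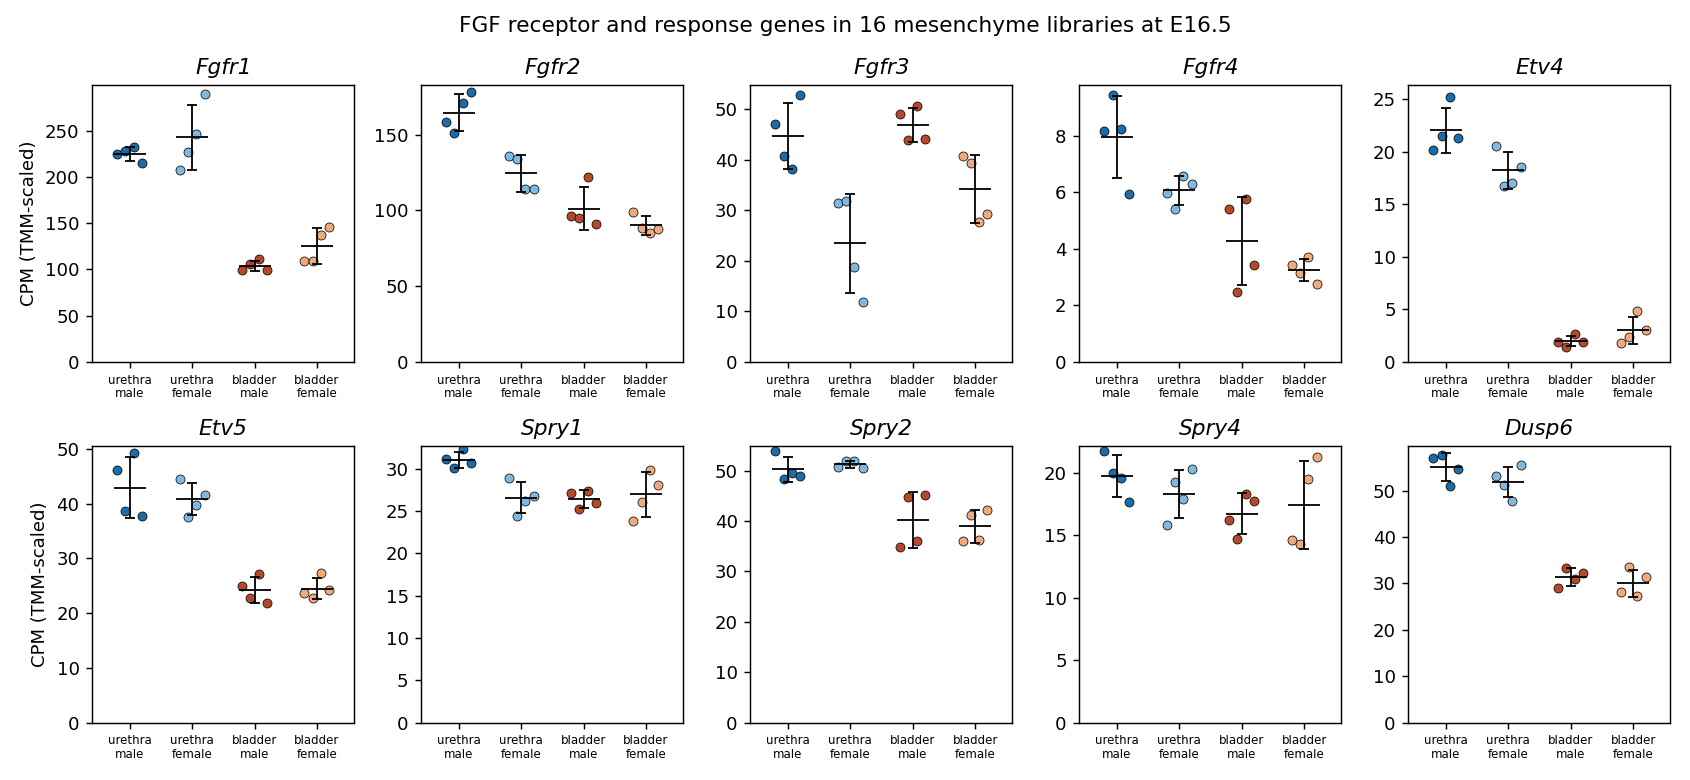
CPM (TMM-scaled, linear axis from 0) of the 10 genes in each of the 16 libraries, 1 point per library, with the group mean as a bar and the SD as whiskers (n = 4 per group). Etv4 lay at 16.8 to 25.2 CPM in the 8 urethra libraries and at 1.46 to 4.81 CPM in the 8 bladder libraries, while Spry1 and Spry4 overlapped between the tissues.

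Fgfr1 encodes the receptor usually most abundant in mesenchyme (chromosome 8, 25513654 to 25575718, plus strand, GRCm38, with counts over its exons as for all genes here). Its CPM, in replicates 1 to 4, was 225, 228, 232 and 215 in male urethra and 208, 227, 246 and 290 in female urethra, against 98.9, 106, 111 and 99.6 in male bladder and 109, 109, 137 and 146 in female bladder. Every urethra library was above every bladder library, and within each tissue the highest values were those of female replicates 3 and 4. The log2 fold change in urethra over bladder was 1.03 ± 0.07 (SE, n = 8 each, adjusted p = 1.36e-09). It was 1.11 ± 0.10 in males (adjusted p = 1.04e-07) and 0.96 ± 0.10 in females (adjusted p = 4.63e-07). Without female urethra replicates 3 and 4 the value over both sexes was 0.96 (adjusted p = 8.08e-09), and with the epithelium score as a covariate it was 0.84 (adjusted p = 3.52e-09).

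Fgfr2 encodes the receptor whose splice forms divide epithelium from mesenchyme, and gene counts cannot tell the forms apart (chromosome 7, 130162451 to 133123350, minus strand). That span is the one of the annotation used for counting, and it reaches exons of Ctbp2. RefSeq places the window before the start of Fgfr2 at 130266809 to 130267058, far inside this span. Of the 10328 exonic bases of Fgfr2, 314 (3.04%) are shared with Ctbp2 on the same strand, and reads in these overlap both genes. Its CPM was 158, 151, 171 and 178 in male urethra and 136, 134, 114 and 114 in female urethra, against 96.2, 94.9, 122 and 90.9 in male bladder and 98.8, 88.5, 85 and 87.8 in female bladder. The tissues overlapped through 1 library, male bladder replicate 3, which lay above the lowest 2 female urethra libraries. The log2 fold change in urethra over bladder was 0.58 ± 0.07 (SE, n = 8 each, adjusted p = 3.7e-07), with 0.70 ± 0.09 in males and 0.47 ± 0.09 in females (adjusted p = 4.64e-06 and 0.000276). It was 0.71 (adjusted p = 1.39e-07) with the epithelium score as a covariate.

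Fgfr3 encodes a receptor best known for restraining bone growth in cartilage and for its expression in urothelium (chromosome 5, 33721674 to 33737068, plus strand). Its CPM was 47.1, 40.6, 38.2 and 52.7 in male urethra and 31.4, 31.8, 18.7 and 11.9 in female urethra, against 49.0, 43.9, 50.5 and 44.1 in male bladder and 40.7, 39.3, 27.6 and 29.2 in female bladder. The tissues overlapped, and the lowest values of each tissue were female replicates 3 and 4. Its log2 fold change was −0.31 ± 0.17 (SE, n = 8 each, adjusted p = 0.109), with −0.07 ± 0.23 in males (adjusted p = 0.81) and −0.55 ± 0.24 in females (adjusted p = 0.0577). Urethra was lower in 7 of 8 pairs, and with the litter and sex pool as a replicate block the value was −0.35 (adjusted p = 0.0153). It also passed the threshold without female urethra replicate 1 (−0.40, adjusted p = 0.0447) or replicate 2 (−0.40, adjusted p = 0.04). With the epithelium score as a covariate its sign turned, to 0.19 over both sexes (adjusted p = 0.0403) and 0.40 in males (adjusted p = 0.00156). Of the 24 markers in the score, 13 were themselves lower in urethra and 3 higher, so this covariate carries tissue along with epithelium. No direction for Fgfr3 between tissues can be given from these data.

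Fgfr4 encodes a receptor known in mouse for its expression in skeletal myoblasts and liver (chromosome 13, 55152640 to 55168759, plus strand). Its CPM was 8.16, 9.44, 8.22 and 5.94 in male urethra and 5.97, 5.41, 6.58 and 6.27 in female urethra, against 5.42, 2.48, 5.74 and 3.44 in male bladder and 3.41, 3.13, 3.7 and 2.76 in female bladder. The tissues overlapped only where the 2 highest male bladder libraries reached above the lowest female urethra library. The log2 fold change in urethra over bladder was 0.90 ± 0.15 (SE, n = 8 each, adjusted p = 4.15e-05), with 0.89 ± 0.21 in males and 0.90 ± 0.22 in females (adjusted p = 0.00129 and 0.00157). The myoblast genes Myod1 and Pax7 moved the same way: Myod1 was at 13 ± 1.91 CPM in urethra and 0.264 ± 0.161 CPM in bladder, and Pax7 at 1.65 CPM in urethra and 0.0251 CPM in bladder (means, n = 8 each). Of 20 skeletal muscle markers, 16 were higher, 3 were lower and 1 was not tested, and Pax3 had 0 counts in male bladder. The 3 lower ones were Myh8, Tnnt1 and Tnnc2. Tnnt1, the most abundant of these, was at 57.3 CPM in urethra and 160 CPM in bladder (means, n = 8 each). Their summed level was 215 to 362 CPM in male urethra, 288 to 314 CPM in female urethra, 222 to 257 CPM in male bladder and 250 to 273 CPM in female bladder. The skeletal muscle score (mean log2 CPM) did not overlap between the tissues (2.53 to 3.29 in urethra and −0.22 to 0.22 in bladder), so its part in the Fgfr4 difference and the tissue cannot be told apart here.

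Between genes, levels are compared per length, as CPM per kb of exonic sequence. Summed over the 4 receptors, this level was 47.2 ± 0.858 in male urethra, 41.6 ± 1.71 in female urethra, 28.1 ± 2.55 in male bladder and 27.1 ± 0.882 in female bladder (SD, n = 4 each). No urethra library (40.3 to 48.0 CPM per kb) overlapped any bladder library (26.0 to 31.8 CPM per kb). The makeup of the sum also differed between tissues, and it did so in the same direction in each pool for Fgfr1 and Fgfr3. Fgfr1 took 53.6 ± 7.29% of the receptor sum in urethra and 42.2 ± 6.43% in bladder (SD, n = 8 each). Its share was higher in urethra in 8 of 8 pairs, by 11.4 percentage points on average (2-sided exact sign-flip permutation test, p = 0.0078, the smallest it can give, adjusted p = 0.013 over 5 values).

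Fgfr3 took 10.6 ± 3.8% of the receptor sum in urethra and 20.5 ± 3.98% in bladder. Its share was lower in urethra in 8 of 8 pairs, by −9.97 percentage points on average (exact sign-flip test, p = 0.0078, adjusted p = 0.013). By library, the share of Fgfr3 was 14, 12.3, 11.2 and 15.4% in male urethra and 10.9, 10.6, 6.46 and 3.79% in female urethra, against 24.7, 22.9, 22.2 and 23.7% in male bladder and 20.9, 21.1, 14.3 and 14.5% in female bladder. The 2 tissues did not overlap within either sex. Over both sexes, male urethra reached 15.4% and female bladder went down to 14.3%. Among the shares, that of Fgfr2 was lower in urethra in 7 of 8 pairs, with 31.4 ± 3.56% in urethra and 33.5 ± 2.31% in bladder (exact sign-flip test, p = 0.023, adjusted p = 0.029). The share of Fgfr4 was 4.44 ± 0.756% in urethra and 3.82 ± 1.03% in bladder (exact sign-flip test, p = 0.16, adjusted p = 0.16). Because the shares add up to 100%, they do not move independently. The pairs come from only 4 litters, and with the mean of each litter as the unit the smallest adjusted p this exact test gave was 0.12. The epithelium score was lower in urethra (4.86 to 6.62) than in bladder (5.89 to 7.08), with overlap. Its markers did not all go this way. Upk3a was at 45.5 CPM in urethra and 331 CPM in bladder, but Prom1 at 137 and 39.2 CPM (means). Of the 24 markers, 13 were lower in urethra and 3 higher. The part of the score in the shares was not tested.

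**Figure D2:**
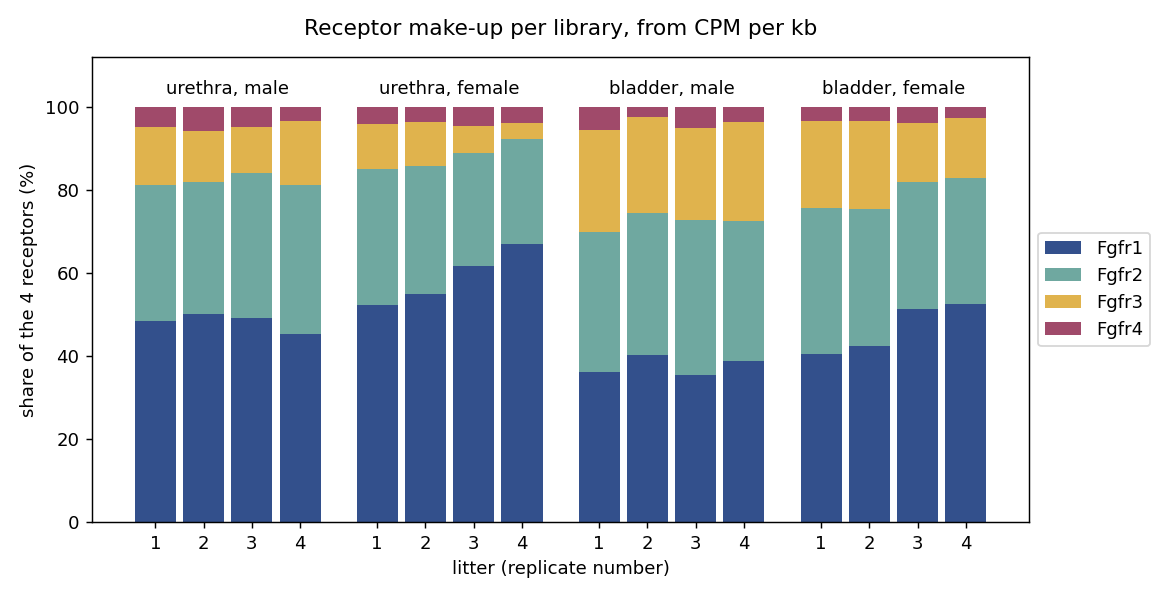
Share of each receptor gene (%) in the summed CPM per kb of the 4 receptors, 1 stacked bar per library, grouped by tissue and sex and numbered by litter. Fgfr1 took 45.3 to 67.0% in the urethra libraries and 35.4 to 52.4% in the bladder libraries, and Fgfr3 took 3.79 to 15.4% in urethra and 14.3 to 24.7% in bladder.

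The ETS transcription factor genes gave the largest and one of the middle differences among the 10 genes. Etv4 (chromosome 11, 101769742 to 101785371, minus strand) encodes a transcription factor of the PEA3 group and is a standard readout of FGF signalling in embryos. Its CPM was 20.2, 21.5, 25.2 and 21.3 in male urethra and 20.6, 16.8, 17 and 18.6 in female urethra, against 1.91, 1.46, 2.64 and 1.88 in male bladder and 1.79, 2.33, 4.81 and 3.08 in female bladder. The groups of the 2 tissues lay far apart, and the highest bladder value, 4.81 CPM, was in female replicate 3. The lowest library held 30 counts of Etv4, so its bladder level was low but measured. The log2 fold change in urethra over bladder was 3.03 ± 0.15 (SE, n = 8 each, adjusted p = 2.82e-11). It was 3.48 ± 0.22 in males (adjusted p = 1.71e-09) and 2.59 ± 0.21 in females (adjusted p = 2.3e-08). The test of that difference between the sexes gave 0.89 ± 0.31 on the log2 scale with an unadjusted p of 0.0105 and did not pass after adjustment over all genes (adjusted p = 0.327).

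Etv5 (chromosome 16, 22381309 to 22439719, minus strand) encodes the close relative of Etv4. Its CPM was 46.1, 38.6, 49.2 and 37.8 in male urethra and 44.5, 37.5, 39.8 and 41.6 in female urethra, against 25.0, 22.7, 27.1 and 21.8 in male bladder and 23.7, 22.7, 27.3 and 24.2 in female bladder. All urethra libraries were above all bladder libraries, and the ranges of males and females overlapped in each tissue. Its log2 fold change was 0.78 ± 0.07 (SE, n = 8 each, adjusted p = 1.84e-08), with 0.83 ± 0.10 in males and 0.74 ± 0.10 in females (adjusted p = 1.29e-06 and 4.36e-06). The related genes thus did not differ between tissues by the same amount. The log2 ratio of Etv4 to Etv5 counts was −1.06 ± 0.161 in urethra and −3.37 ± 0.462 in bladder (SD, n = 8 each). It was higher in urethra in 8 of 8 pairs, by 2.31 on average (exact sign-flip test, p = 0.0078, adjusted p = 0.013). The remaining gene of the PEA3 group, Etv1, had a log2 fold change of 0.02 ± 0.08 (adjusted p = 0.813).

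The inhibitors split into genes that were higher in urethra and genes that did not pass the test. Dusp6 (chromosome 10, 99263231 to 99267489, plus strand), the ERK phosphatase, had 57.0, 57.7, 50.9 and 54.6 CPM in male urethra and 53.2, 51.2, 47.8 and 55.4 CPM in female urethra, against 28.9, 33.3, 30.9 and 32.3 CPM in male bladder and 28.1, 33.5, 27.3 and 31.3 CPM in female bladder. No library of one tissue reached the range of the other. Dusp6 had a log2 fold change of 0.80 ± 0.05 (SE, n = 8 each, adjusted p = 4.86e-10), with 0.81 ± 0.07 in males and 0.79 ± 0.07 in females (adjusted p = 7.29e-08 and 9.6e-08). Spry2 (chromosome 14, 105891947 to 105896819, minus strand), a Sprouty inhibitor, had 54.0, 48.4, 49.6 and 49.0 CPM in male urethra and 50.8, 51.9, 51.9 and 50.5 CPM in female urethra, against 34.8, 44.8, 36.0 and 45.1 CPM in male bladder and 36.1, 41.2, 36.3 and 42.3 CPM in female bladder. Its ranges did not overlap either, but the gap was small, from 48.4 CPM in the lowest urethra library to 45.1 CPM in the highest bladder library. In both sexes of bladder, Spry2 was higher in litters 2 and 4 than in litters 1 and 3. Spry2 had a log2 fold change of 0.36 ± 0.06 (SE, n = 8 each, adjusted p = 3.26e-05).

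Spry1 (chromosome 3, 37639947 to 37644598, plus strand), a Sprouty gene known for limiting growth of the ureteric bud, had 31.1, 30.1, 32.3 and 30.7 CPM in male urethra and 28.9, 24.4, 26.2 and 26.8 CPM in female urethra, against 27.1, 25.2, 27.4 and 26.0 CPM in male bladder and 23.8, 26.1, 29.9 and 28.1 CPM in female bladder. Male urethra lay above all other libraries and the other 3 groups overlapped. Its log2 fold change in urethra over bladder was 0.10 ± 0.05 over both sexes (SE, n = 8 each, adjusted p = 0.0691). In males it was 0.23 ± 0.07 (adjusted p = 0.00917) and in females −0.02 ± 0.07 (adjusted p = 0.799). The test of the difference between the sexes gave 0.26 ± 0.10 with an unadjusted p of 0.0224 and an adjusted p of 0.445. Over both sexes Spry1 passed the threshold without female bladder replicate 3 or 4, male bladder replicate 1 or 3, or female urethra replicate 2, with values of 0.17, 0.15, 0.14, 0.15 and 0.13, and also with DESeq2 (0.12, adjusted p = 0.0357), with its size factors (0.12, adjusted p = 0.0453), without the filter on low counts (0.17, adjusted p = 0.0207) or with library totals alone as the scaling (0.24, adjusted p = 0.000583). Spry4 (chromosome 18, 38586247 to 38601415, minus strand), a further Sprouty gene, ran from 15.8 to 21.8 CPM in urethra and from 14.3 to 21.3 CPM in bladder (n = 8 each). Its ranges overlapped almost fully, and its log2 fold change was 0.16 ± 0.09 (SE, adjusted p = 0.121). It passed without female bladder replicate 3 or 4 (0.22 and 0.24) or male bladder replicate 3 (0.21), without the filter on low counts (0.22, adjusted p = 0.0362), and with library totals alone (0.29, adjusted p = 0.00603). That last scaling moved the median of all genes from −0.03 to 0.11.

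**Figure D3:**
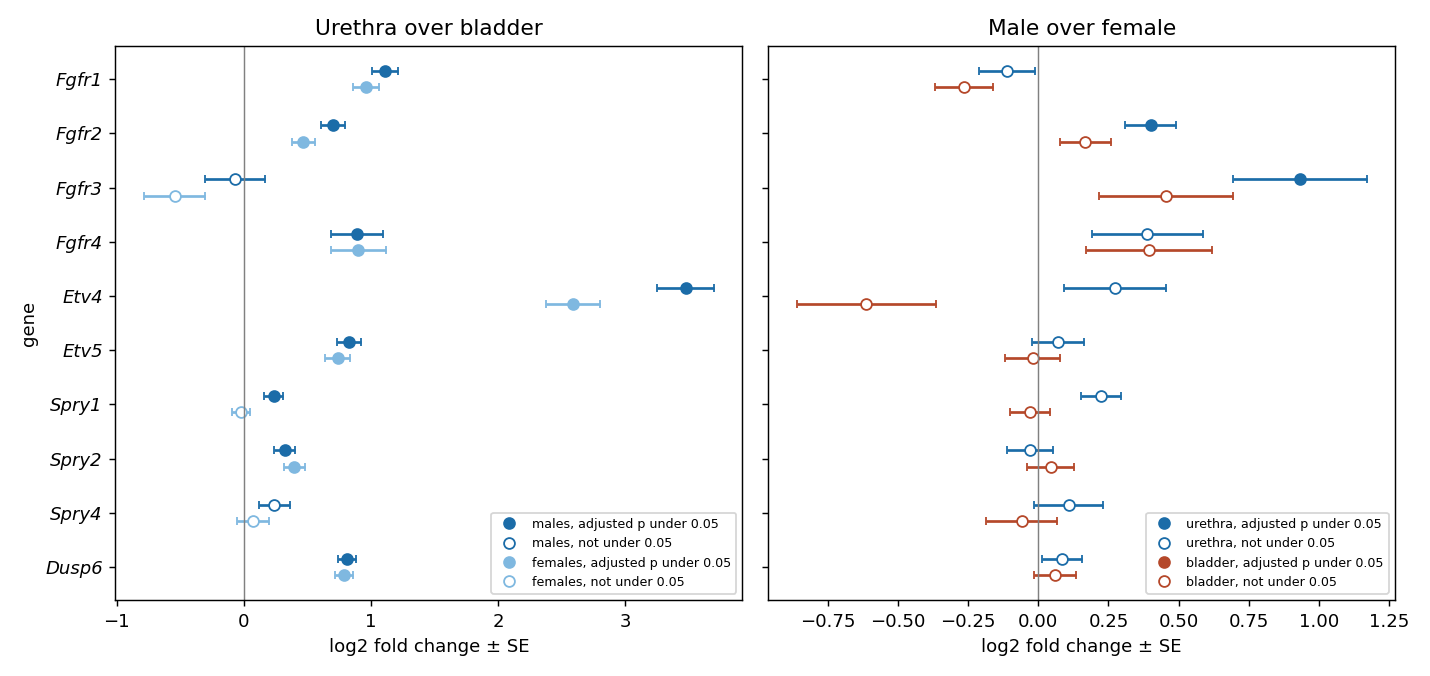
Log2 fold change ± SE of the 10 genes for urethra over bladder in each sex (left) and for male over female in each tissue (right), with filled points for adjusted p under 0.05 (edgeR quasi-likelihood test over 18254 genes, 4 libraries per group). Between tissues Etv4 stood at 3.48 in males and 2.59 in females, while between the sexes only Fgfr2 and Fgfr3 in urethra passed the threshold.

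The sequences just upstream of Dusp6 and Spry2, which were called, and of Spry1, which was not, are shown because these inhibitors respond to the same signal and differed in how far apart the tissues were. They are the 250 bases before the annotated start of each gene, read 5′ to 3′ on the strand of the gene, from RefSeq on GRCm38.p6. The window of Dusp6 is at chr10:99262981-99263230 (plus strand), that of Spry2 at chr14:105896820-105897069 (minus strand) and that of Spry1 at chr3:37639697-37639946 (plus strand). Capitals mark GGAA, the core letters that ETS factors are known to bind, on either strand, so that TTCC marks it on the opposite one.
Dusp6: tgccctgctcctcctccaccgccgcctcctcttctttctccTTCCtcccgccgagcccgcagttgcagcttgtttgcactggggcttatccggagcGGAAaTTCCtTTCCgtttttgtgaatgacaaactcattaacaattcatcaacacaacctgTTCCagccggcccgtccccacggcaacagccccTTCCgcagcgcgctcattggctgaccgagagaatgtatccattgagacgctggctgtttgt
Spry2: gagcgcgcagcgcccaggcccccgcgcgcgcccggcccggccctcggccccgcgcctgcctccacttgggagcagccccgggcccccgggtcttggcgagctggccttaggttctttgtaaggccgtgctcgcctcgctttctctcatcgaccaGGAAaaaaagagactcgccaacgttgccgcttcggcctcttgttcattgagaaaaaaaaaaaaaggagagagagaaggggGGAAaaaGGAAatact
Spry1: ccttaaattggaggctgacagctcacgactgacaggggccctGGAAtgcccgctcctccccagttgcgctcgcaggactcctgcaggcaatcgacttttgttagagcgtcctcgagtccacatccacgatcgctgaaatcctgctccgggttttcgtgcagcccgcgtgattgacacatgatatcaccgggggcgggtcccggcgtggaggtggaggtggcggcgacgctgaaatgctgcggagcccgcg
GGAA was found 6 times upstream of Dusp6, 3 times upstream of Spry2 and 1 time upstream of Spry1. The windows of other members did not keep this order. Fgfr3, which was not called, had 5 and 1 matches in its windows. Among called genes, Etv5 had 4 and 0, Fgfr2 had 2 and Fgfr4 had 2. A link between matches and expression was not tested. So short a motif is common: 93.4% of 32851 RefSeq windows of this length held it, with a median of 3 matches per window. Of the longer forms CCGGAAG and CCGGAA, each searched on both strands and the second contained in the first, the share of all windows was 6.91% and 12%. The letters TGACGT, the core of a motif bound by CREB and ATF factors, were in 6.47% of windows on either strand. Windows were found for 7 of the 10 genes, 9 windows in all, and the only match to these 3 longer motifs was a CCGGAA in the Fgfr4 window, 178 bases before the RefSeq start. In the annotation of the count table that is the first base of the gene, 55152640, so the match lies within the counted Fgfr4 exon and not upstream of it. A match is a description of letters, and a missing match says only that these letters are not in this window.

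On the scale of CPM per kb, the order of mean levels in urethra was Spry2 24.3, Fgfr1 23.7, Dusp6 17.1, Fgfr2 14, Etv5 10.2, Spry1 9.92, Etv4 6.49, Fgfr3 4.76, Spry4 4.01 and Fgfr4 1.98. Neighbours in this order overlapped in their ranges over 8 libraries except at 3 steps, below Fgfr1, below Spry1 and below Spry4. In bladder the order of mean levels was Spry2 19, Fgfr1 11.6, Dusp6 9.81, Fgfr2 9.25, Spry1 9.19, Etv5 5.93, Fgfr3 5.66, Spry4 3.59, Fgfr4 1.06 and Etv4 0.801 CPM per kb. There the ranges were apart below Spry2, below Spry1 and below Spry4. Etv4 thus held the seventh place in urethra and the last in bladder, and Fgfr1 and Spry2, which overlapped in urethra, were apart in bladder.

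Males and females were compared within each tissue. In urethra, 2 of the 10 genes were higher in males, Fgfr2 and Fgfr3, and none was lower, where 6.39% of all tested genes were called, 3.97% higher and 2.42% lower in males. Fgfr2 was at 165 ± 11.9 CPM in male urethra and 125 ± 12 CPM in female urethra (SD, n = 4 each), a log2 fold change of 0.40 ± 0.09 (SE, adjusted p = 0.0124). Fgfr3 was at 44.7 ± 6.55 CPM in male urethra and 23.4 ± 9.81 CPM in female urethra, a log2 fold change of 0.93 ± 0.24 (SE, adjusted p = 0.0286). The libraries of the 2 sexes did not overlap for 3 of the 10 genes, these 2 and Spry1, all higher in males. Over all tested genes 13.4% did not overlap in either direction and 7.09% were higher in males without overlap. Spry1 had a log2 fold change of 0.23 ± 0.07 (SE, adjusted p = 0.0729), and with the litter as a replicate block it was 0.22 (adjusted p = 0.0497).

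These sex differences depended on the libraries and settings used. The call was kept in 23 of 27 alternatives for Fgfr2 and in 20 of 27 for Fgfr3, and every lost call is among those below. Without female urethra replicate 4 alone, both genes stayed called. Without female urethra replicates 3 and 4, the 2 with the least epithelium, the log2 fold change of Fgfr2 was 0.28 (adjusted p = 0.257) and that of Fgfr3 was 0.50 (adjusted p = 0.154), and none of the 10 genes was called. Leaving out female urethra replicate 3 alone gave 0.36 for Fgfr2 (adjusted p = 0.053) and 0.84 for Fgfr3 (adjusted p = 0.0973). Leaving out male urethra replicate 4 gave 0.36 for Fgfr2 (adjusted p = 0.0537) and 0.84 for Fgfr3 (adjusted p = 0.0945). Without male urethra replicate 1 the value for Fgfr3 was 0.90 (adjusted p = 0.0667). The call for Fgfr3 was also lost, at a fold about as large, without the filter on low counts (0.94, adjusted p = 0.0825), with the skeletal muscle score as a covariate (0.89, adjusted p = 0.052) and with only the groups compared in the fit (0.95, adjusted p = 0.0908). With the epithelium score as a covariate, Fgfr2 was at 0.26 (adjusted p = 0.192) and Fgfr3 at 0.39 (adjusted p = 0.0491).

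In bladder, edgeR called 0 of the 10 genes between the sexes, where it called 0.581% of all tested genes. DESeq2 and limma-voom also called 0 of the 10, where they called 2.7% and 0.635% of all tested genes. Fgfr1 and Etv4 had the lowest unadjusted p of the 10 genes, and both were lower in males. Fgfr1 was at 104 ± 5.86 CPM in male bladder and 125 ± 19 CPM in female bladder (SD, n = 4 each), a log2 fold change of −0.27 ± 0.10 (SE, adjusted p = 0.284). Etv4 was at 1.97 ± 0.49 CPM in male bladder and 3.0 ± 1.32 CPM in female bladder, a log2 fold change of −0.61 ± 0.25 (SE, adjusted p = 0.31). Fgfr3 was the 1 gene whose bladder libraries did not overlap between the sexes, where 6.62% of all tested genes did not overlap and 4.09% were higher in males without overlap. It was at 46.9 ± 3.35 CPM in male bladder and 34.2 ± 6.74 CPM in female bladder, a log2 fold change of 0.46 ± 0.24 (SE, adjusted p = 0.473). The interaction of tissue and sex was called for 0 of the 10 genes, against 0.668% of all tested genes. Etv4 and Spry1 had the lowest unadjusted p of the 10 genes for it.

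Among female libraries, Fgfr1 and Fgfr3 differed in opposite directions between those with a higher and those with a lower epithelium score. In female urethra, where the score ran from 6.30 and 6.22 in replicates 1 and 2 to 5.46 and 4.86 in replicates 3 and 4, Fgfr3 had 31.4, 31.8, 18.7 and 11.9 CPM. Fgfr2 had 136, 134, 114 and 114 CPM in the same libraries. Fgfr1 went the other way, with 208, 227, 246 and 290 CPM. In female bladder, where the score was 6.70, 6.76, 5.89 and 6.26, Fgfr3 was likewise lower in replicates 3 and 4 and Fgfr1 likewise higher. Male libraries varied less in the score, from 6.21 to 6.62 in urethra and from 6.80 to 7.08 in bladder. In male urethra, where the score was 6.55, 6.21, 6.35 and 6.62, Fgfr3 had 47.1, 40.6, 38.2 and 52.7 CPM. Fgfr1 had 225, 228, 232 and 215 CPM there, a narrow range. The lowest score was in replicate 2, but the lowest Fgfr3 and the highest Fgfr1 were in replicate 3. Replicates 1 and 4, with the higher scores, were above replicates 2 and 3 for Fgfr3 and below them for Fgfr1. These were the directions seen in females. Male bladder did not show this. In male bladder, where the score was 6.80, 7.04, 7.08 and 6.98, Fgfr1 had 98.9, 106, 111 and 99.6 CPM, highest at the highest score, and Fgfr3 had 49.0, 43.9, 50.5 and 44.1 CPM, with no order by score. The same 4 litters gave the male and the female libraries. Replicates 3 and 4 had the lowest epithelium scores of their group in female urethra and female bladder, but not in male urethra or male bladder.

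**Figure D4:**
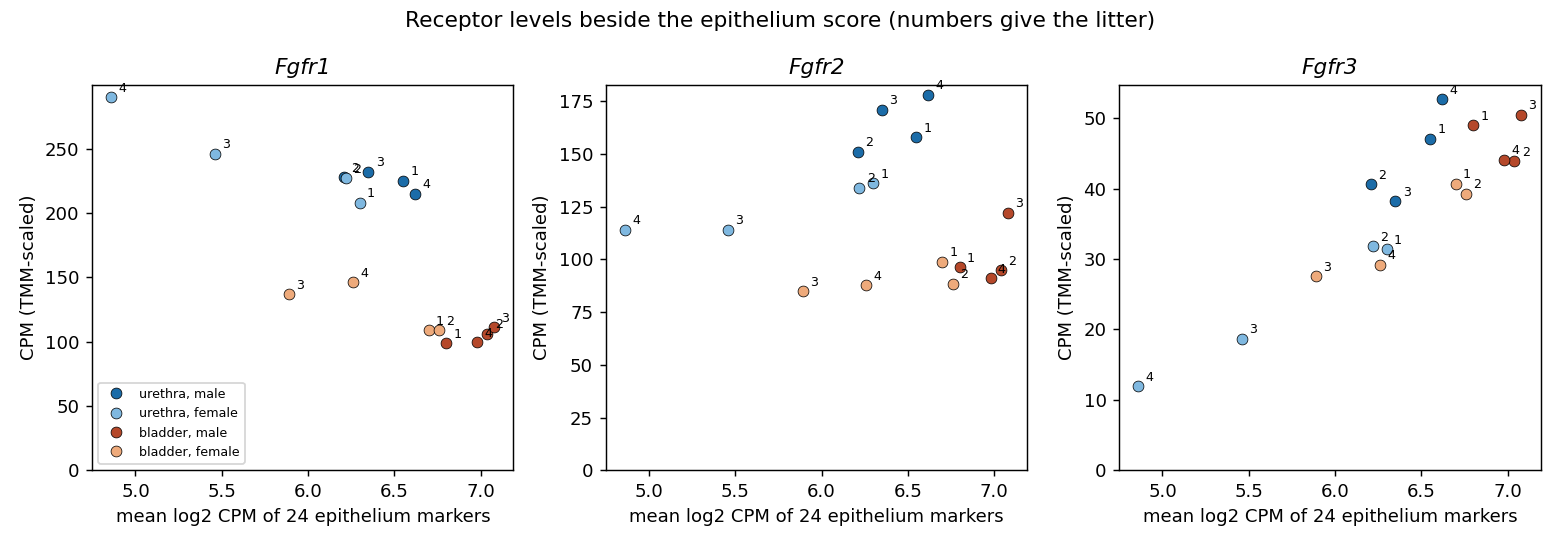
CPM (linear axis) of Fgfr1, Fgfr2 and Fgfr3 against the epithelium score (mean log2 CPM of 24 epithelium markers) in the 16 libraries, with the litter number beside each point. Fgfr3 was lowest, at 11.9 CPM, and Fgfr1 highest, at 290 CPM, in the female urethra library with the lowest score, 4.86.

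Beyond the 10 genes, the rest of the pathway was described by lists of related genes for urethra over bladder, to be read against 36.5% of all tested genes higher and 38.5% lower and a median of −0.03. Of 18 FGF ligand genes, 12 were expressed enough to be tested, 6 of them higher, 3 lower and 3 not called, with a median log2 fold change of 0.30. The higher ones included Fgf10, the mesenchymal ligand of the epithelial receptor form (0.86 ± 0.12, adjusted p = 3.9e-06), Fgf18 (0.50 ± 0.15, adjusted p = 0.00696) and Fgf20 (1.23 ± 0.24, adjusted p = 0.000195). Fgf15 had 22 to 32 counts in the urethra libraries and 0 to 2 in the bladder libraries, and Fgf17 had 6 to 26 in urethra and 0 to 3 in bladder. Of the lower ones, Fgf5 was at 0.362 ± 0.188 CPM in urethra and 2.94 ± 1.64 CPM in bladder (SD, n = 8 each), a log2 fold change of −3.05 ± 0.28 (adjusted p = 3.13e-08). Fgf9, a ligand that epithelium and mesothelium are known to make, was at 9.14 ± 1.88 CPM in urethra and 15.3 ± 4.36 CPM in bladder (−0.76 ± 0.16, adjusted p = 0.000432), and Fgf7, a mesenchymal ligand of the epithelial receptor form, changed by −0.35 ± 0.11 (adjusted p = 0.00855). Fgf1, Fgf2 and Fgf16 were not called.

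Of 22 genes for heparan sulphate synthesis and editing, which shape the cofactor that FGFs need to bind their receptors, 16 were higher in urethra, 2 lower and 4 not called, with a median log2 fold change of 0.45. Hs3st3b1, a 3-O-sulphotransferase, was at 11.2 ± 1.98 CPM in urethra and 1.36 ± 0.942 CPM in bladder (3.05 ± 0.24, adjusted p = 6.17e-09), and its relative Hs3st3a1 at 5.9 ± 1.18 CPM in urethra and 0.906 ± 0.499 CPM in bladder (2.68 ± 0.24, adjusted p = 2.26e-08). The extracellular sulphatase gene Sulf2 had a log2 fold change of 1.86 ± 0.12 (adjusted p = 1.08e-09) and Sulf1 of 0.85 ± 0.08 (adjusted p = 4.43e-08). These enzymes take sulphate off heparan sulphate, so genes that add sulphate and genes that remove it were both higher. The proteoglycan core genes Sdc4 (−0.70 ± 0.11, adjusted p = 1.91e-05) and Gpc4 (−0.20 ± 0.07, adjusted p = 0.0235) were lower.

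Of 15 tested genes for receptor partners and adaptors, 10 were higher in urethra, 1 was lower and 4 were not called, with a median log2 fold change of 0.44. Flrt2, a membrane protein gene of the family that binds FGF receptors, was at 208 ± 29.8 CPM in urethra and 79.3 ± 24.3 CPM in bladder (1.43 ± 0.08, adjusted p = 1.69e-10). Both docking protein genes were higher, Frs3 by 1.01 ± 0.09 (adjusted p = 1.15e-08) and Frs2 by 0.30 ± 0.05 (adjusted p = 3.06e-05). The lower gene was Kl, which encodes the co-receptor Klotho, at 1.08 ± 0.204 CPM in urethra and 1.58 ± 0.502 CPM in bladder (−0.53 ± 0.17, adjusted p = 0.0108). Fgfrl1, which encodes a receptor-like protein without a kinase domain, was not called (−0.09 ± 0.05, adjusted p = 0.127).

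Genes of the RAS-ERK cascade itself differed little. Of 14 tested, 4 were higher in urethra, 2 were lower (Hras and Araf) and 8 were not called, with a median log2 fold change of −0.04. The highest log2 fold change was that of Rps6ka2, an ERK-activated kinase gene, at 0.57 ± 0.07 (adjusted p = 2.14e-06), and the lowest that of Hras at −0.41 ± 0.09 (adjusted p = 0.000631).

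Among 15 tested genes that also limit or respond to ERK, 8 were higher in urethra, 4 were lower and 3 were not called, with a median log2 fold change of 0.35. The phosphatase genes related to Dusp6 went in both directions. Dusp4, whose product acts on ERK in the nucleus, was at 23.1 ± 3.26 CPM in urethra and 8.19 ± 2.01 CPM in bladder (1.5 ± 0.11, adjusted p = 1.86e-09), and Dusp7, of the cytoplasmic kind like Dusp6, was at 0.65 ± 0.06 on the log2 fold scale (adjusted p = 2.69e-08). Dusp5, a nuclear ERK phosphatase gene, was at 3.53 ± 0.758 CPM in urethra and 13 ± 1.51 CPM in bladder (−1.88 ± 0.12, adjusted p = 4.5e-10), and Dusp9 at 10.2 ± 2.28 CPM in urethra and 32.1 ± 7.81 CPM in bladder (−1.64 ± 0.15, adjusted p = 7.37e-08). All 3 Spred genes, relatives of the Sproutys, were higher, with log2 fold changes of 0.53 for Spred1, 0.42 for Spred2 and 0.92 for Spred3 (adjusted p = 1.02e-09, 1.62e-06 and 1.17e-08). Ccnd1, the cyclin D1 gene, was at 431 ± 69.1 CPM in urethra and 173 ± 32.6 CPM in bladder (1.31 ± 0.11, adjusted p = 1.26e-08), whereas Myc was lower (−0.54 ± 0.05, adjusted p = 5.11e-08), as was Ier3 (−0.32 ± 0.12, adjusted p = 0.0226). Il17rd, which encodes the FGF inhibitor Sef, was not called (0.01 ± 0.10, adjusted p = 0.893).

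**Figure D5:**
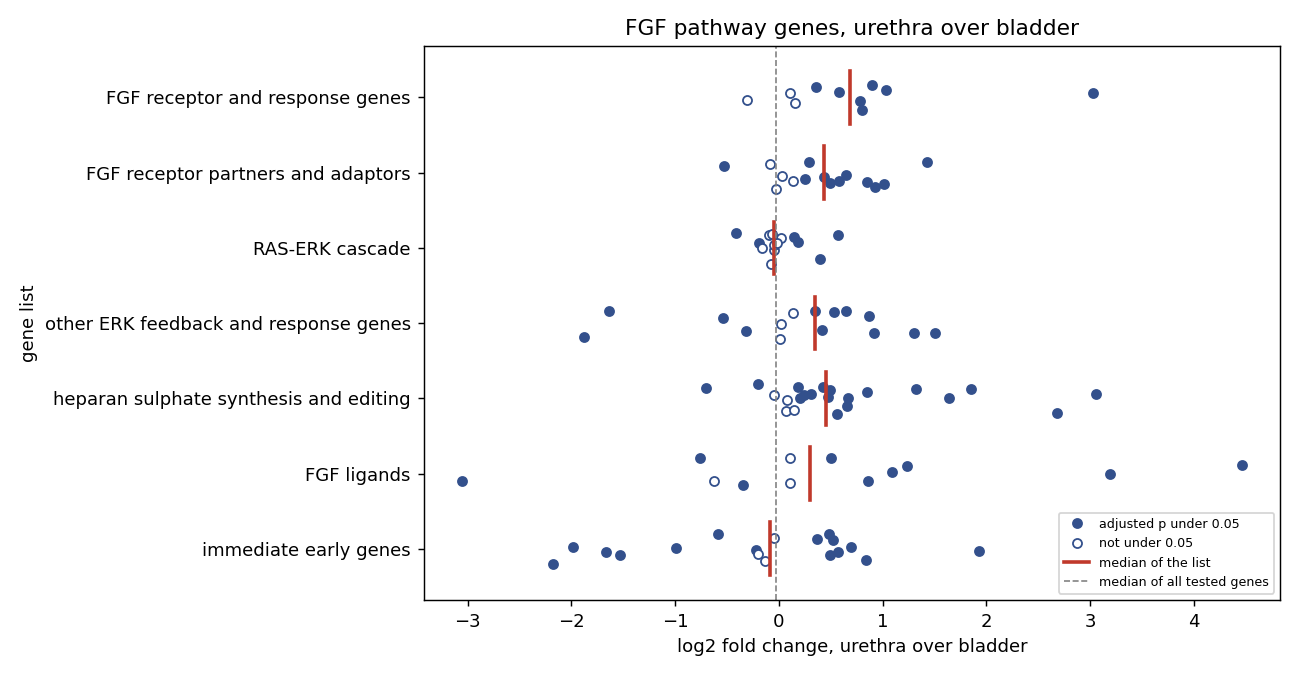
Log2 fold change of urethra over bladder for each tested gene of 7 lists, 1 point per gene, filled for adjusted p under 0.05, with the median of the list as a red line and the median of all 18254 tested genes as a dashed line. The 10 receptor and response genes had a median of 0.68 with Etv4 at 3.03, the RAS-ERK cascade stayed within −0.41 and 0.57, and the rightmost 2 ligand points, Fgf15 and Fgf17, rest on at most 3 counts in any bladder library.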

How the data were processed

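RNA was measured in 16 libraries. Per the labels' protocols, 250 ng of RNA was poly(A)-selected with a stranded kit and read as paired ends of 100 bp. Per the submitters' processing notes, reads were processed with bcl2fastq, HISAT2 2.1.0, SAMtools and Subread 1.6.3 on GRCm38. The authors deposited counts of read pairs for each gene symbol, made with strand setting 2 per the file headers. A second deposited table, of values the authors scaled with DESeq2, was not used here.

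Counts were analysed with edgeR 4.0.16 in R 4.3.3 (quasi-likelihood test, TMM scaling, filterByExpr, 1 fit of 4 groups with 6 contrasts). P-values were adjusted by Benjamini-Hochberg across the 18254 genes tested, and calls needed an adjusted p under 0.05. The SE of a log2 fold change is its size divided by the square root of the F statistic, an approximation. The 4 receptor shares and the Etv4 to Etv5 ratio (pseudocount 0.5) were tested with an exact 2-sided sign-flip test of 256 flips. Alternatives were DESeq2 1.42.0, limma 3.58.1, other scalings and filters, blocks, covariates and left-out libraries. Scripts were tested on simulated data. Figures used Python 3.11.15, pandas 2.3.3 and matplotlib 3.10.9.

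The labels give the litter. Between the urethra and bladder library of 1 pool, deviations from the group means correlated at 0.09 to 0.41 (median 0.19, over 0.1 in 7 of 8 pairs), against a median of −0.06 between other litters. Library pairs within groups differed by more than sampling noise (chi-square per degree of freedom 4.91 to 37.16 over 24 pairs). The 37 mitochondrial genes had 0 counts. The genes and lists were chosen with earlier results of these data known, and the GGAA search was added after the longer motifs were counted. Named genes were the 10 members, the 2 highest and 2 lowest called genes of each list, and others (such as Fgf10, Sulf2, Spred1 and Myc) named after their values were seen. Some genes of the lists are not reported here by name.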

Additional observations from a re-analysis of the deposited data

Results flagged for a closer look

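Fgfr2 in male bladder replicate 3 was at 122 CPM, above the other 3 male bladder libraries, which were at 90.9 to 96.2 CPM. The gap to its nearest neighbour was large for the range of the group (Dixon's test at 95%). The values of 60 groups of 4 libraries were examined in this way and 1 was singled out, where chance alone gives about 1 in 20. The same library lay at 50.5 CPM for Fgfr3 and at 7.08 for the epithelium score, the highest male bladder value of each.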

How the results depend on the processing

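None of the 10 genes was called between the sexes in bladder, or for the interaction, under any alternative run. Between tissues, 7 to 9 genes were called over both sexes, 7 to 8 in females and 8 to 9 in males. With the epithelium score as a covariate, Fgfr3 was reversed, to 0.19 over both sexes and 0.40 in males. Between male and female urethra, 2 genes were called, against 1 without the filter on low counts, with the skeletal muscle score as a covariate or with only the groups compared (Fgfr3 lost in each), 1 with the epithelium score as a covariate (Fgfr2 lost), 0 without female urethra replicates 3 and 4, and 0 to 3 when 1 library was left out. The cause was not tested, except that the last fits hold fewer samples. With the litter as a replicate block, 7, 8, 8, 3, 0 and 0 genes were called in the 6 comparisons, Fgfr3 in females being at −0.57 (adjusted p = 0.0469) and, with blocks by litter and sex, at −0.61 (adjusted p = 0.00631). The block changed no call beyond these and those given in the report. The difference in the share of Fgfr2 ran from −2.69 to −1.69 percentage points when 1 pair was left out, with adjusted p up to 0.059. With litter means as the replicates of this pairing, the differences of 11.4 (Fgfr1), −2.1 (Fgfr2) and −9.97 (Fgfr3) percentage points and of 2.31 (Etv4 to Etv5 ratio) each had an adjusted p of 0.12, since 4 litters allow no smaller. The share of Fgfr4, not called in the main test, had the same adjusted p. At this unit the sign-flip test thus set none of these values apart. Over all genes, calls between male and female urethra ran from 370 to 1691 against 1167, between the sexes in bladder from 16 to 473 against 106, and for the interaction from 56 to 274 against 122. Library totals alone moved the share of calls that were higher in urethra from 48.7% to 60.8%. The lowest counts in a library were 30 for Etv4 and 51 for Fgfr4, which limits the precision of their bladder levels. Blocks by litter and sex could give no comparison of the sexes.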

Other observations

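Immediate early genes, which respond to ERK and to handling of tissue, were mixed between urethra and bladder: of 18 tested, 8 were higher in urethra, 7 lower and 3 not called (Fos, Junb and Nr4a1), with a median log2 fold change of −0.09 against −0.03 for all genes (edgeR quasi-likelihood test). Egr3 was at 1.98 ± 0.353 CPM in urethra and 0.52 ± 0.18 CPM in bladder (SD, n = 8 each), and the phosphatase gene Dusp1 at 26.4 ± 1.92 CPM in urethra and 14.8 ± 2.31 CPM in bladder. The heat shock genes Hspa1a and Hspa1b, which share reads with each other and are uncertain singly, were lower, with log2 fold changes of −1.98 ± 0.14 and −2.18 ± 0.10. Their part in the differences of the FGF response genes was not tested.

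The genes whose profile over the 16 libraries was nearest to a member were found by the root mean square difference of centred log2 CPM, over 18244 other genes. For Etv4 the nearest were Msx1 (0.33), Methig1 (0.346) and Syt5 (0.36), all farther away than for any other member. For Dusp6 they were Ccnd2 (0.094), Rpgr (0.099) and Ccdc112 (0.101), for Etv5 Sp4 (0.088), Zfp40 (0.095) and Tlr2 (0.104), and for Fgfr1 Clip3 (0.085), Epdr1 (0.089) and Hecw2 (0.09). For Fgfr2 they were Igsf9 (0.099), Lpar6 (0.112) and Acot1 (0.121), and for Fgfr3 AI661453 (0.136), Cblc (0.138) and Gm16136 (0.156). For Fgfr4 they were Hhip (0.227), Rbp4 (0.227) and Zfp40 (0.259), for Spry1 Mccc2 (0.071), Serinc3 (0.076) and Srd5a3 (0.079), for Spry2 Pnrc1 (0.071), Ttc23 (0.077) and Fbxo34 (0.082), and for Spry4 Foxn3 (0.109), Ndst2 (0.11) and Antxr2 (0.115). Among the members themselves, Spry1 and Spry4 were 0.159 apart and Etv5 and Dusp6 0.18, while the nearest member to Etv4 was Fgfr1 at 1.058. The libraries share tissue, litter and depth, so these distances are descriptions.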
